A study of Mus musculus with 40 samples.

Results

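Induced regulatory T cells (iTregs) were restimulated through the T cell receptor with or without CM-4620, a blocker of the store-operated calcium channel, and the effect of the blocker on the transcriptome was measured. The comparison was defined by the library labels: the 3 libraries labelled with an ORAI inhibitor were set against the 3 libraries of restimulated iTregs, with the replicate number as a block. These 6 libraries belong to a series of 40 samples, 24 of them RNA-seq libraries, and 3 resting iTreg libraries and 3 libraries of iTregs restimulated with cyclosporin A (CsA), a calcineurin inhibitor, entered the same fit for a total of 12. Sorted naive CD4+ T cells that lacked the Foxp3 fluorescent reporter, with low CD44, were taken from the spleen of 6-week-old mice on a C57BL/6 background. All 4 groups shared an induction of 4 days on plate-bound anti-CD3 (0.5 µg/ml) and anti-CD28 (1 µg/ml) with 2 ng/ml TGF-β and IL-2, a sort on the Foxp3 reporter, and 1 day of rest in IL-2. Restimulation used the same plate-bound antibodies. The dose of CM-4620, the time of restimulation before RNA was taken, the mouse sex and the reporter allele (GFP or RFP) of these libraries are not given in the sources used here, and the labels name the drug only as an ORAI inhibitor, which the study gives as CM-4620. The CsA libraries are titled as iTregs but carry the cell type label Treg, where the other 9 carry iTreg. The sources also do not say whether the replicates came from separate cultures or animals, so p-values measure the spread between these libraries, which may be technical.

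T cell receptor signalling empties the calcium store of the endoplasmic reticulum. The store sensors STIM1 and STIM2 then open the plasma membrane channel built of ORAI proteins, and the calcium that enters activates the phosphatase calcineurin, which dephosphorylates NFAT and lets it enter the nucleus. There NFAT acts with AP-1 and other partners on cytokine, receptor and exhaustion genes, and with FOXP3 on Treg genes. CM-4620 acts on the channel and CsA acts downstream of it, on calcineurin.

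Read depth was 9808711 to 12608045 reads in the 6 libraries compared and up to 14103874 in the other 6. Levels below are normalized counts, reads divided by 1 size factor per library, and 3 reads, the floor for a count of 0, were worth 2.28 to 3.36 normalized counts; intervals of this kind cover counting error only. The share of reads on mitochondrial genes was 1.81 to 1.91% in restimulated and 2.11 to 2.24% in CM-4620-treated iTregs. Summed levels of 7 T cell markers were 31516 to 33077 and 33966 to 36889 normalized counts in these groups, and none of the 7 passed the test. Natural killer markers *Ncr1*, *Klrb1c* and *Klra8* and B cell markers *Ms4a1* and *Pax5* were at 0 in all 12 libraries. Other markers of these cells were detected at low levels. Summed natural killer markers, all from *Klre1*, were at 3.36 to 8.06 normalized counts in restimulated and 1.76 to 2.63 in CM-4620-treated libraries. In the same order, B cell markers summed to 17.9 to 30.2 and 24.5 to 33.3. Dendritic cell markers summed to 16.8 to 26.2 and 16.3 to 27.3, and erythroid markers to 4.54 to 5.60 and 5.26 to 14.1. Summed myeloid markers stayed at or below 8.97 normalized counts, and *Cd8a* with *Cd8b1* summed to 99.0 to 126 in the 6 libraries compared.

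CM-4620 changed 420 of 11105 genes tested (3.78%), 188 upward (1.69%) and 232 downward (2.09%), where a change means a log2 fold change of more than 0.5 in size with adjusted p under 0.05 (limma, Benjamini-Hochberg). Most of these changes were modest, and here and below the error after a log2 fold change is its SE. The median size among changed genes was 0.72 on the log2 scale, 53 genes rose and 52 fell by more than 2-fold, and 6 rose and 7 fell by more than 4-fold. In 399 of the 420 genes the 3 treated libraries did not overlap the 3 restimulated libraries, against 26.3% of all genes tested. The 420 were called on these same libraries, so this separation is no added support for them. By adjusted p alone 549 genes were higher (4.94%) and 620 lower (5.58%), 10.5% in all. These shares over all genes tested are the background for every list count below. A short list with no called gene is near them. The number of changed genes was 310 to 383 without any single library and fell to 259 when replicate 2 was left out of every group. Bulk values cannot tell fewer cells of a type apart from less RNA per cell. The study picked *Tbx21*, *Il12rb2*, *Stat3*, *Il21*, *Atf3*, *Gzma*, *Fasl* and *Stat2* from these libraries as genes whose rise on restimulation the drugs blocked. They stand on the helper lineage, cytokine, AP-1, granzyme, TNF and interferon lists below. The counts and medians of those lists are thus no independent evidence of direction. All 20 lists and their members were chosen with earlier results of these data known, so the same holds for the other lists.

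**Figure D1:**
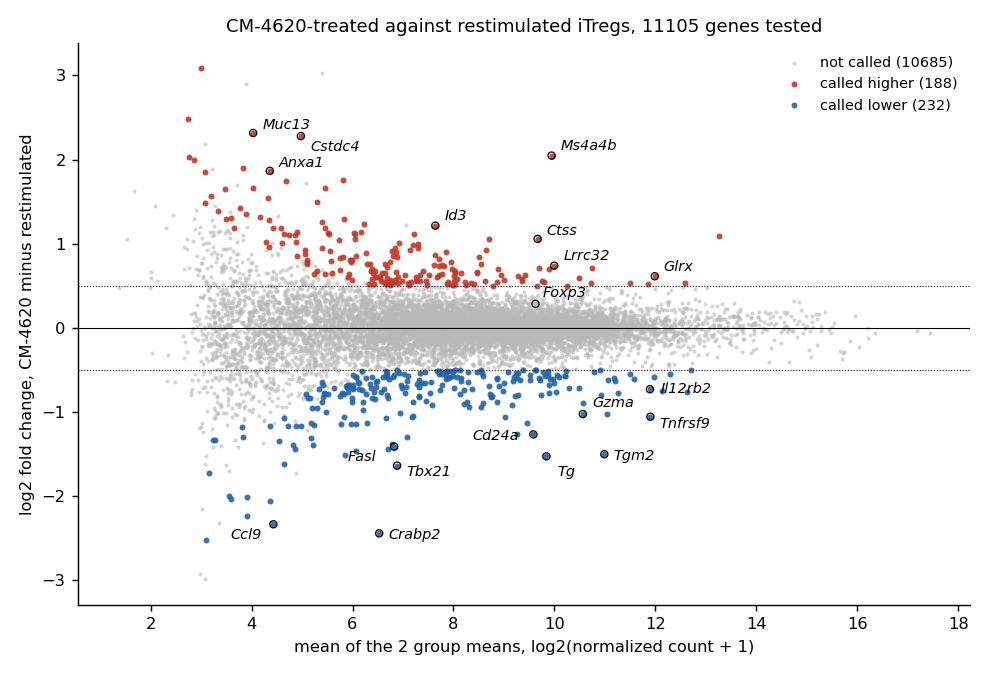
Mean level of the 2 groups (log2 of normalized count + 1) against log2 fold change of CM-4620-treated minus restimulated iTregs for each gene tested. Coloured points are the 188 genes that rose and the 232 that fell, and named points include *Ms4a4b* at 2.05 and *Crabp2* at -2.45.

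The channel and its sensors are the drug's own machinery, and their transcripts changed little. *Orai1*, the pore subunit with the main role in T cells, was at 126, 93.0 and 114 normalized counts in restimulated iTregs and at 121, 143 and 124 with CM-4620, overlapping groups with a log2 fold change of 0.23 ± 0.15 (SE, adjusted p = 0.388). *Orai2*, a channel subunit that tempers the current, was at 337, 378 and 318 without and 446, 458 and 442 with the drug. Every treated library lay above every restimulated library for *Orai2*, and the log2 fold change of 0.38 ± 0.07 (SE, adjusted p = 0.00163) passed the test on p but not the fold threshold; resting iTregs held 580.0 ± 36.3 (SD, n = 3). *Orai3* had a log2 fold change of -0.12 ± 0.08 (SE, adjusted p = 0.400) and *Stim1*, the main store sensor, of -0.04 ± 0.07 (SE, adjusted p = 0.764). *Stim2* was at 212, 168 and 153 in restimulated and 162, 202 and 202 in treated cells. Among 16 tested genes for the channel, sensors and stores, none was called by limma, edgeR or DESeq2. Over all genes tested limma called 3.78%, so none in so short a list is near that share. By adjusted p alone 4.94% of all genes tested were higher and 5.58% lower. In limma 2650 of all 11105 genes tested passed an unadjusted p of 0.05, and 5 of the 16 did. By adjusted p alone 4 were higher (*Orai2*, the STIM inhibitor *Saraf*, and the calcium pumps *Atp2a2* and *Atp2b1*) and 1, the plasma membrane pump *Atp2b4*, was lower. That number higher was 2 without restimulated replicate 2, without CM-4620 replicate 2 and without CM-4620 replicate 3.

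No NFAT or calcineurin transcript was called either. *Nfatc1* was at 563, 603 and 671 normalized counts in restimulated and 638, 548 and 625 in treated cells, and *Nfatc3* at 386, 336 and 335 without and 356, 360.0 and 359 with the drug, with overlapping libraries for both. *Nfatc2* was at 822, 777 and 820.1 without and 712, 771 and 747 with the drug, a log2 fold change of -0.12 ± 0.07 (SE, adjusted p = 0.313). None of the 16 calcineurin and NFAT genes tested passed the adjusted p alone in limma, edgeR or DESeq2. In limma 10.5% of all genes tested did. Of the 16, 2 had an unadjusted p below 0.05 in limma, beside 2650 of all 11105 genes tested. The list had a median log2 fold change of -0.02, beside 0.01 over all genes tested. *Ppp3ca*, a catalytic subunit of calcineurin, had the highest value in this list, 0.46 ± 0.15 (SE, adjusted p = 0.0548). Without CM-4620 replicate 1, *Ppp3ca* was called higher (log2 fold change 0.58, adjusted p = 0.0386), and the regulatory subunit gene *Ppp3r1* was lower by adjusted p alone (log2 fold change -0.29, adjusted p = 0.0289). *Ppp3ca* also passed the adjusted p, at 0.0234, in a limma fit of only the 6 libraries compared, and *Ppp3r1*, at 0.0418, without replicate 1 of all groups.

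*Tgm2*, *Crabp2* and *Tg* were among the 15 largest falls, and all were higher in restimulated than in resting libraries. *Tgm2*, transglutaminase 2, a protein-crosslinking enzyme (chr2:158116402-158146436, minus strand, GRCm38), was at 2815, 2923 and 3269.6 normalized counts in restimulated iTregs and at 1026, 977 and 1171 with CM-4620. The groups were far apart, with a log2 fold change of -1.51 ± 0.06 (SE, adjusted p = 2.79e-10), and the treated libraries also lay above the resting ones (395, 462 and 439). With CsA *Tgm2* was at 1296, 1372 and 1491. *Crabp2*, a carrier of retinoic acid in the cell, went from 144, 149 and 172 to 28.6, 30.8 and 23.7 normalized counts, a log2 fold change of -2.45 ± 0.22 (SE, adjusted p = 1.39e-06), and rested at 18.1 ± 4.49 (SD, n = 3). It had the largest fall of the genes with no overlap between groups and a mean of at least 20 normalized counts. *Tg*, which encodes thyroglobulin, the thyroid hormone precursor, was at 1474, 1325 and 1288 and then at 469, 471 and 470.3 with the drug (log2 fold change -1.53 ± 0.08, adjusted p = 2.18e-09). The treated *Tg* values were nearly alike and stood between the resting mean of 181 ± 9.67 and the restimulated mean of 1362 ± 98.3 (SD, n = 3).

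*Gzma*, encoding granzyme A, a protease of cytotoxic granules, was at 2057, 2035 and 1995 normalized counts after restimulation and 1007, 990.2 and 987 with CM-4620. Its libraries within each group lay close together, and the log2 fold change was -1.03 ± 0.05 (SE, adjusted p = 2.18e-09), with resting cells at 813, 784 and 766. *Fasl*, the death ligand for FAS, was at 168, 151 and 173 without and 62.2, 64.3 and 56.2 with the drug, a log2 fold change of -1.42 ± 0.20 (SE, adjusted p = 0.000113). Resting iTregs held 45.6 ± 14.1 normalized counts of *Fasl* and CsA-treated cells 71.9 ± 15.0 (SD, n = 3), so treated and resting levels lay close. The promoter windows of these genes are shown because *Fasl* and granzyme genes are textbook activation-induced effector genes, and NFAT binds the core GGAAA. Each window runs from 250 bases before to 50 after the RefSeq start (GRCm38.p6), printed in the direction of transcription, with GGAAA or its complement TTTCC in capitals: *Gzma* at chr13:113100932-113101231 (minus strand) and *Fasl* at chr1:161788446-161788745 (minus strand).
Gzma: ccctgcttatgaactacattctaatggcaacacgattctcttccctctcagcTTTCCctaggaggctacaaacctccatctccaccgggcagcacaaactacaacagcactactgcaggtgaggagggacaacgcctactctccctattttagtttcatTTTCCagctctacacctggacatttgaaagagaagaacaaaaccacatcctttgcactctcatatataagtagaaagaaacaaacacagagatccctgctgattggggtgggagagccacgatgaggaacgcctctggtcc
Fasl: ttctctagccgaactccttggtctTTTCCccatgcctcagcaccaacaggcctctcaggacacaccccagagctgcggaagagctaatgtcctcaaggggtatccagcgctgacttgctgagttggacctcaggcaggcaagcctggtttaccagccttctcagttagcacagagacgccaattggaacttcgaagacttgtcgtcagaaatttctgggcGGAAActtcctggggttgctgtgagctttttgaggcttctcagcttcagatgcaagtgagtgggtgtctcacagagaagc
Each window holds 2 matches. At least 1 match is found in 59.2% of the 11484 promoter windows of tested genes, and 2 or more in 24.6%, so these letters are common, and a match is not a binding site.

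*Tnfrsf9* (4-1BB), a costimulatory receptor of activated T cells, was a falling gene with high counts. It was at 5182, 5052 and 5248 normalized counts in restimulated cells and 2258, 2501 and 2688 with CM-4620, a log2 fold change of -1.06 ± 0.07 (SE, adjusted p = 2.09e-08). The treated libraries fell in the range of the resting ones, which held 2154, 2210.4 and 2789. *Il24*, a cytokine of the IL-10 family, fell from 3071, 2719.8 and 2713 to 1316, 1493 and 1351 (log2 fold change -1.03 ± 0.07, adjusted p = 1.32e-07), and *Cnn3*, the actin-binding calponin 3, from 1915, 2008 and 1997 to 1024, 1074 and 1078 (log2 fold change -0.90 ± 0.06, adjusted p = 2.89e-08). *Atf3*, a stress-induced bZIP factor, fell from 652, 710.5 and 749 to 328, 319 and 359.8 (log2 fold change -1.07 ± 0.08, adjusted p = 1.35e-07). None of these groups overlapped. *Hilpda*, a lipid droplet protein induced by hypoxia, was at 1131, 1016 and 1079 without and 634, 589.7 and 625 with the drug (log2 fold change -0.80 ± 0.06, adjusted p = 2.45e-07), and resting cells held 656, 654 and 667.

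*Cd24a*, a lipid-anchored surface glycoprotein, fell to near the resting level with CM-4620. It was at 1044, 1066 and 1136 normalized counts in restimulated, 421, 438 and 487 in treated and 486, 518 and 468 in resting libraries, and its log2 fold change was -1.27 ± 0.07 (SE, adjusted p = 2.18e-09). Some genes fell below rest. *Atp7b*, a copper transporter, was at 34.2, 32.5 and 30.0 in restimulated and 5.10, 10.6 and 6.14 in treated cells (log2 fold change -2.06 ± 0.29, adjusted p = 0.000123), with 31.6, 26.2 and 22.8 at rest, and treated minus resting was -1.80 ± 0.29 (SE, adjusted p = 0.000227). *Selenbp1*, selenium-binding protein 1, was at 142, 143 and 166 without and 53.0, 47.5 and 64.9 with the drug (log2 fold change -1.44 ± 0.15, adjusted p = 5.91e-06), and treated minus resting was -0.81 ± 0.15 (SE, adjusted p = 0.000738). Both comparisons use the same treated libraries. Also among the 15 largest falls was the chemokine *Ccl9* (log2 fold change -2.34 ± 0.39, adjusted p = 0.000634), which was at 35.1 ± 11.4 normalized counts (SD, n = 3) in restimulated cells. That group also held the complement gene *C3*, *Prss2*, *Slc17a6*, *Rnd3*, *Ajuba* and *Ramp3*, each at or below 57.2 normalized counts in every library. Each of these 6 lost its call without 2 to 5 of the single libraries, with adjusted p up to 0.104.

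**Figure D2:**
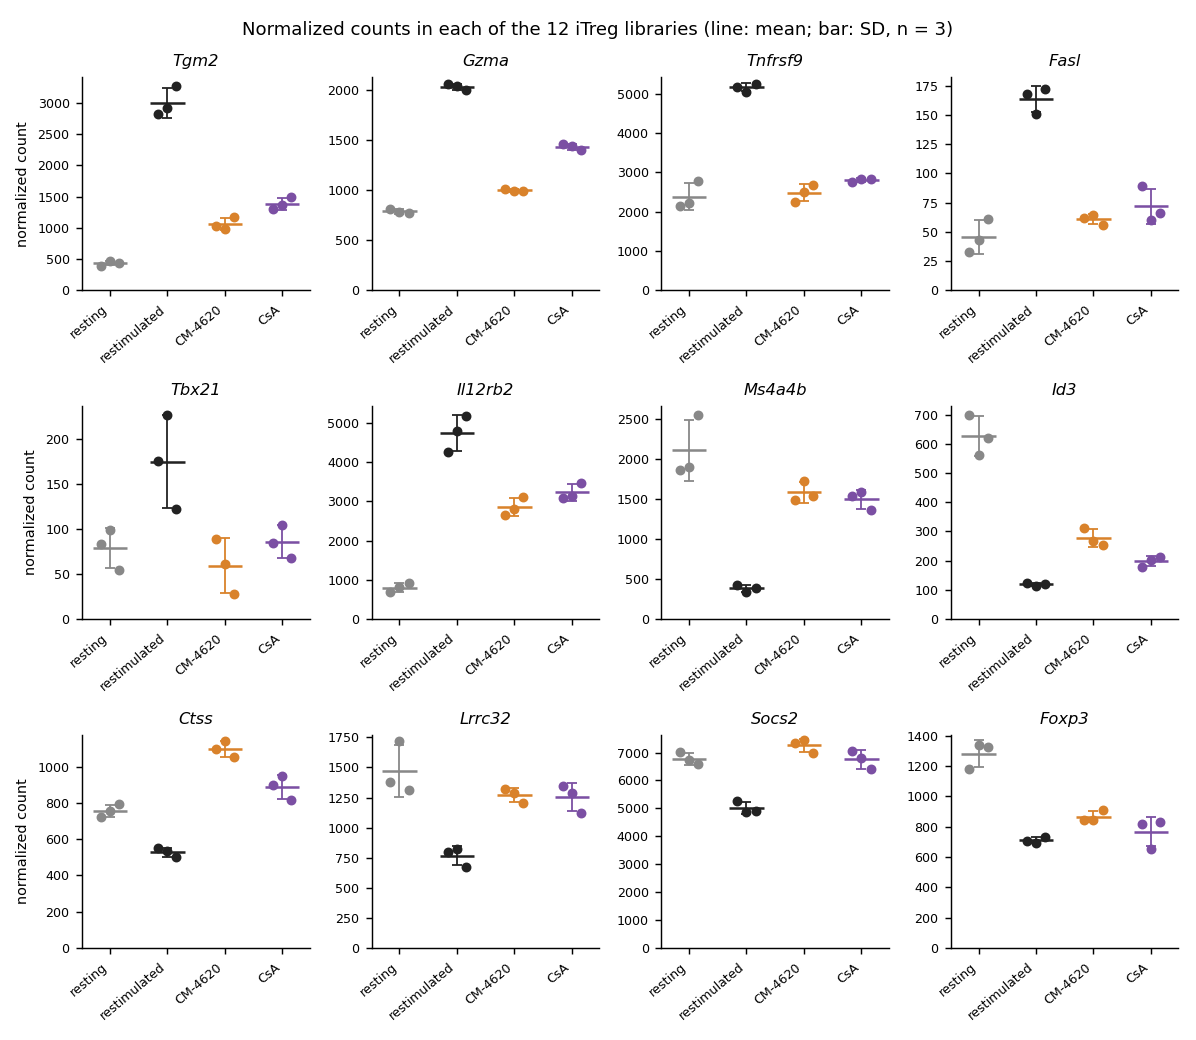
Normalized counts (linear axis from 0, 1 panel per gene) of 12 genes in each library of resting, restimulated, CM-4620-treated and CsA-treated iTregs. Points are libraries, lines are means and bars are the SD of 3 libraries. *Tgm2*, *Gzma* and *Fasl* sit lower and *Ms4a4b* and *Id3* higher in the 3 CM-4620 libraries than in the 3 restimulated ones.

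Among nuclear factors induced by the T cell receptor, those that changed fell. Of 20 tested, 9 fell and none rose, 11 were lower by adjusted p alone, and the median log2 fold change was -0.46. The orphan receptors of the NR4A family, early targets of T cell receptor signals, all fell. *Nr4a3* was at 52.4, 54.9 and 44.5 normalized counts in restimulated and 24.5, 22.0 and 14.0 in treated libraries (log2 fold change -1.31 ± 0.28, adjusted p = 0.00529), without overlap. *Nr4a1* went from 66.5, 71.7 and 62.7 to 46.9, 25.5 and 43.9 (log2 fold change -0.82 ± 0.19, adjusted p = 0.0104) and *Nr4a2* from 81.6, 84.0 and 77.2 to 34.7, 51.9 and 45.6 (log2 fold change -0.88 ± 0.23, adjusted p = 0.0209). Treated libraries were all lower than restimulated ones for both, although at these low counts single libraries mattered. *Egr2*, a zinc finger factor tied to anergy, was at 75.5, 91.9 and 61.8 without and 37.7, 42.2 and 28.1 with the drug (log2 fold change -1.06 ± 0.21, adjusted p = 0.00242). Fold changes of members with higher counts had a smaller SE in this fit, which takes out differences between replicate numbers. *Bhlhe40*, a repressor needed for cytokine output in effector T cells, was at 2892, 3062 and 3340.4 without and 1688, 1742 and 1973 with the drug (log2 fold change -0.78 ± 0.06, adjusted p = 3.43e-07), and *Irf8* at 1354, 1386 and 1012 without and 845, 880.2 and 644 with the drug (log2 fold change -0.66 ± 0.07, adjusted p = 5.83e-06). In both genes the groups stayed apart. *Ikzf3* (Aiolos) had a log2 fold change of -0.57 ± 0.06 (SE, adjusted p = 1.61e-05), *Nfil3* of -0.66 ± 0.08 (SE, adjusted p = 4.81e-05) and *Zeb2* of -0.61 ± 0.14 (SE, adjusted p = 0.00925). *Irf4*, which scales with receptor signal strength, was lower by adjusted p alone, at 5893, 5634 and 5622 without and 4100.0, 4256 and 4186 with the drug (log2 fold change -0.45 ± 0.07, adjusted p = 0.00025). *Myc* was at 5919, 5748 and 6269 without and 5717, 5619.8 and 5887 with the drug, overlapping groups with a log2 fold change of -0.06 ± 0.05 (SE, adjusted p = 0.498), and the immediate early gene *Egr1* was at 26.2, 22.4 and 20.9 without and 19.4, 23.8 and 11.4 with the drug (log2 fold change -0.38 ± 0.26, adjusted p = 0.411). The number that fell was 7 or 8 of 20 without any single library and 6 without replicate 2. Calls were lost for *Nr4a1* without restimulated replicate 2 or CM-4620 replicate 2 (adjusted p up to 0.101), *Nr4a2* without restimulated replicate 1 or 3 or CM-4620 replicate 1, 2 or 3 (adjusted p up to 0.123) and *Zeb2* without restimulated replicate 2 or 3 (adjusted p up to 0.0659).

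AP-1 genes split by member. *Fosl2* (FRA-2) fell from 511, 440.4 and 519 to 284, 244 and 238 normalized counts (log2 fold change -0.94 ± 0.09, adjusted p = 4.81e-06), and resting cells held 207, 178 and 175. *Junb* was at 6357, 6923 and 4507 in restimulated and 4858, 4342 and 2966 in treated libraries (log2 fold change -0.55 ± 0.06, adjusted p = 1.03e-05). Replicate 3 was the lowest *Junb* library in both groups, and the groups overlapped. *Fos* rose from 15.1, 19.1 and 18.2 to 29.6, 43.1 and 47.4 (log2 fold change 1.13 ± 0.22, adjusted p = 0.00202) and *Jund* from 76.5, 95.3 and 111 to 145, 139.9 and 142 (log2 fold change 0.61 ± 0.14, adjusted p = 0.00936), 2 genes that restimulation had lowered from 47.4 ± 3.76 and 153 ± 21.2 (SD, n = 3). Together with *Atf3*, 3 of 13 tested AP-1 and BATF genes fell and 2 rose, with a median of -0.06. The call was lost for *Jund* without restimulated replicate 1 (adjusted p = 0.0763), and 52.6% of *Jund* exon bases are shared with another gene's exons, in libraries that do not mark strand.

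Cytokine genes that changed all fell. *Il10*, the suppressive cytokine of many Tregs, was at 186, 139 and 148 normalized counts in restimulated and 61.2, 65.1 and 52.6 in treated libraries (log2 fold change -1.38 ± 0.16, adjusted p = 2.0e-05), with 34.8, 28.2 and 34.9 at rest. Every treated library was below every restimulated one. With *Il24*, the enkephalin precursor *Penk* (log2 fold change -0.51 ± 0.08, adjusted p = 0.000374) and the chemokine *Ccl4* (log2 fold change -0.59 ± 0.14, adjusted p = 0.0119), 4 of 19 tested cytokine and chemokine genes fell, and the median was -0.19. *Il21*, a cytokine of follicular helper cells, was at 936, 893 and 1084 without and 742, 827 and 828 with the drug, below the fold threshold (log2 fold change -0.28 ± 0.07, adjusted p = 0.021). *Lif* was lower by adjusted p alone (log2 fold change -0.46 ± 0.06, adjusted p = 7.88e-05) and *Ltb*, lymphotoxin beta, higher (log2 fold change 0.46 ± 0.06, adjusted p = 0.000131). *Ifng* was near the limit of these libraries, at 13.1, 19.1 and 18.2 in restimulated and 2.04, 6.16 and 6.14 in treated cells, and missed the threshold (log2 fold change -1.71 ± 0.66, adjusted p = 0.115). The count of falling cytokine genes was 2 without restimulated replicate 2 and 2 without CM-4620 replicate 2. The threshold was missed by *Penk* without restimulated replicate 2 or 3 or CM-4620 replicate 2 (log2 fold change -0.45) and *Ccl4* without restimulated replicate 2 or CM-4620 replicate 1 or 2 (adjusted p up to 0.0995).

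The TNF superfamily list also holds *Icos* and *Cd28*, costimulatory receptors outside that family. Of its 20 tested genes, 4 fell and none rose. Beside *Tnfrsf9* and *Fasl* these were *Tnfsf14* (LIGHT), at 144, 147 and 169 normalized counts in restimulated and 93.9, 93.3 and 98.3 in treated libraries (log2 fold change -0.68 ± 0.12, adjusted p = 0.0015), and *Tnfsf10* (TRAIL), at 141, 167 and 179.8 without and 107, 111 and 108 with the drug (log2 fold change -0.57 ± 0.13, adjusted p = 0.00716). Neither pair of groups overlapped. By adjusted p alone 6 of the 20 were lower and 1 was higher, beside 5.58% and 4.94% of all genes tested. The list's median was 0.12, above that of all genes, so the falls were not shared by the whole list. The costimulatory receptor *Tnfrsf4* (OX40) was at 7974, 6652 and 6432 without and 5487, 6229 and 5249 with the drug (log2 fold change -0.31 ± 0.12, adjusted p = 0.105), and *Tnf* at 456, 410.2 and 419.6 without and 464, 481 and 501 with the drug (log2 fold change 0.17 ± 0.07, adjusted p = 0.153). The call was lost for *Tnfsf10* without restimulated replicate 3 (adjusted p = 0.0645).

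The largest fall among helper lineage genes was in *Tbx21*, which encodes the Th1 factor T-bet. It was at 175, 226 and 123 normalized counts in restimulated and 88.8, 61.6 and 28.1 in treated libraries (log2 fold change -1.64 ± 0.19, adjusted p = 2.09e-05). Replicate 2 was highest and replicate 3 lowest among restimulated libraries, yet the lowest of them was above the highest treated one. *Il12rb2*, the signalling chain of the IL-12 receptor, was at 4260.4, 4793 and 5176 without and 2645, 2809 and 3105 with the drug (log2 fold change -0.73 ± 0.06, adjusted p = 2.45e-07), against 683, 823 and 911 at rest, so treated cells kept much of the rise. Of its exon bases 40.0% are shared with another gene's exons. *Runx3* (log2 fold change -0.38 ± 0.07, adjusted p = 0.000984), *Il12rb1* (log2 fold change -0.35 ± 0.07, adjusted p = 0.00228) and *Stat3* (log2 fold change -0.43 ± 0.05, adjusted p = 2.43e-05) were lower by adjusted p alone, as was the Th2 factor *Gata3* (log2 fold change -0.39 ± 0.08, adjusted p = 0.00606). The Th17-related factors *Rora* (log2 fold change -0.51 ± 0.13, adjusted p = 0.0148) and *Ahr* (log2 fold change -0.78 ± 0.21, adjusted p = 0.0245) fell. *Cxcr3*, a chemokine receptor of Th1 cells and a target of T-bet, rose from 551, 492 and 553 to 781, 842 and 847 (log2 fold change 0.63 ± 0.07, adjusted p = 1.91e-05), toward the resting 1033, 1109.8 and 1236. The IL-18 receptor chain *Il18rap* also rose (log2 fold change 0.85 ± 0.21, adjusted p = 0.0156). Of 31 helper lineage genes tested 4 fell and 2 rose, beside 2.09% and 1.69% of all genes tested, and the median was -0.16. This list holds *Tbx21*, *Il12rb2* and *Stat3*, which the study picked from these libraries, and so is no independent evidence of its direction. The calls did not hold for *Rora* without restimulated replicate 1 or 2 or CM-4620 replicate 1 (adjusted p up to 0.101), *Ahr* without restimulated replicate 1 or 3 or CM-4620 replicate 1, 2 or 3 (adjusted p up to 0.145) and *Il18rap* without restimulated replicate 2 or 3 or CM-4620 replicate 2 (adjusted p up to 0.112). The number of falls was 2 without restimulated replicate 1 and without CM-4620 replicate 1.

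Co-inhibitory receptors and anergy genes fell in 4 of 20 cases, and none rose. *Lag3*, a receptor that binds MHC class II, was at 1494, 1263 and 1212 normalized counts in restimulated and 799.8, 785 and 734 in treated libraries (log2 fold change -0.77 ± 0.07, adjusted p = 3.51e-06). *Tigit* was at 129.9, 141 and 128 without and 70.4, 71.3 and 79.9 with the drug (log2 fold change -0.84 ± 0.16, adjusted p = 0.00243), and neither gene's groups overlapped. *Cblb*, a ubiquitin ligase that restrains receptor signals, was at 1297, 1496 and 1482 without and 956, 866 and 1042 with the drug (log2 fold change -0.58 ± 0.08, adjusted p = 9.85e-05). *Ndrg1*, a factor of T cell anergy, was at 1193, 1191 and 1197 without and 659, 724 and 713 with the drug (log2 fold change -0.77 ± 0.07, adjusted p = 1.0e-06), below the resting 1159, 1174 and 1341. *Cd274* (PD-L1, log2 fold change -0.45 ± 0.08, adjusted p = 0.000791) and *Cd200* (log2 fold change -0.36 ± 0.06, adjusted p = 0.00114) were lower by adjusted p alone, *Vsir* (VISTA) was higher (log2 fold change 0.32 ± 0.06, adjusted p = 0.00272), and *Pdcd1* (PD-1) was at 310.2, 239 and 268 without and 204, 243 and 189.5 with the drug, with overlap (log2 fold change -0.36 ± 0.13, adjusted p = 0.102). The median was 0.01. The call was lost for *Cblb* without CM-4620 replicate 2 (log2 fold change -0.48).

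Cytotoxic granule genes did not move as a block. *Gzmb*, the granzyme B gene, was at 15548, 14984 and 15658 normalized counts in restimulated and 13833, 14804 and 14731 in treated libraries (log2 fold change -0.09 ± 0.05, adjusted p = 0.317). *Nkg7*, a granule membrane protein, fell from 1319, 1125 and 1044 to 666, 845 and 663 (log2 fold change -0.68 ± 0.10, adjusted p = 0.000154), while the serpin *Serpina3g* rose from 420.0, 338 and 379 to 532, 588 and 537 (log2 fold change 0.55 ± 0.12, adjusted p = 0.00498). With *Gzma*, 2 of 10 tested genes fell and 1 rose. *Serpina3g* and its paralogs are similar in sequence, and its call was lost without restimulated replicate 2 or CM-4620 replicate 2 (adjusted p up to 0.0597).

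On the Treg list, the genes that changed all rose. This depends on which genes the list holds. *Il10*, and *Tnfrsf9*, which the study gives as a Treg signature gene, stood on other lists and fell, while *Fgl2*, on no list, rose. The list of 30, all tested, includes genes the study picked from these libraries and so is no independent evidence of its direction. Of these, 6 rose and none fell, 12 were higher and 2 lower by adjusted p alone, and the median was 0.20. *Ms4a4b*, a tetraspan membrane protein of T cells (chr19:11443553-11467055, plus strand, GRCm38), was at 422, 338 and 389.6 normalized counts in restimulated and 1483, 1730.4 and 1537 in treated libraries (log2 fold change 2.05 ± 0.11, adjusted p = 2.18e-09). The treated libraries approached the resting ones, at 1868, 1899.7 and 2549. Its relative *Ms4a6b* was at 2556, 2228 and 2327 without and 3282, 3779 and 3254 with the drug (log2 fold change 0.54 ± 0.09, adjusted p = 0.00105), and reads of this family may be split between near-identical members. *Id3*, an inhibitor of E proteins that helps to maintain Tregs, rose from 124, 113 and 119.9 to 312, 268 and 254 (log2 fold change 1.21 ± 0.10, adjusted p = 7.89e-07), still below the resting 699.8, 561 and 618. *Lrrc32*, which encodes GARP, the docking receptor for latent TGF-β, rose from 798, 824 and 676 to 1324, 1289 and 1207 (log2 fold change 0.74 ± 0.07, adjusted p = 2.81e-06). None of these groups overlapped. *Gpr83*, an orphan receptor of Tregs, rose from 2960.1, 2952 and 3133 to 4081, 4307 and 4623 (log2 fold change 0.52 ± 0.05, adjusted p = 3.52e-06) and *Socs2*, a regulator of cytokine signals, from 5255, 4878 and 4893 to 7331, 7447 and 6980.4 (log2 fold change 0.53 ± 0.05, adjusted p = 1.26e-06). *Foxp3*, the lineage factor, was at 705, 695 and 731 in restimulated, 847, 842 and 906 in treated and 1178, 1338 and 1324 in resting cells. All treated *Foxp3* values were above the restimulated ones, and the difference passed the test on p but not on fold (log2 fold change 0.28 ± 0.08, adjusted p = 0.0224). Of *Foxp3* exon bases 31.5% lie in another gene's exons.

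Among the other Treg genes, *Nt5e* (CD73, log2 fold change 0.42 ± 0.06, adjusted p = 0.000204), *Nrp1* (log2 fold change 0.42 ± 0.11, adjusted p = 0.0214), *Sema4a* (log2 fold change 0.39 ± 0.07, adjusted p = 0.00235) and *Tgfbr2* (log2 fold change 0.33 ± 0.08, adjusted p = 0.00977) were higher by adjusted p alone. *Il2rb* (log2 fold change -0.32 ± 0.06, adjusted p = 0.00192) and *Entpd1* (CD39, log2 fold change -0.38 ± 0.10, adjusted p = 0.0224) were lower. *Ctla4* was at 2316, 2097 and 2129.8 without and 1792, 2068 and 2023 with the drug (log2 fold change -0.15 ± 0.08, adjusted p = 0.29), and *Ikzf2* (Helios) at 149, 142 and 112 without and 132, 179 and 145 with the drug (log2 fold change 0.17 ± 0.15, adjusted p = 0.526). *Tgfbr1* (log2 fold change 0.27 ± 0.09, adjusted p = 0.0836) and the low-level *Nlrp6* (log2 fold change 0.68 ± 0.42, adjusted p = 0.359) did not pass, and *Il10rb* was at 409, 429 and 362 without and 399, 429 and 422 with the drug, with overlap. Leaving out single libraries left 5 or 6 rising genes and leaving out replicate 2 left 4. The threshold was missed by *Gpr83* without CM-4620 replicate 3 (log2 fold change 0.498) and *Ms4a6b* without restimulated replicate 2 or CM-4620 replicate 2 (log2 fold change 0.44).

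Promoter windows of *Ms4a4b* (chr19:11443308-11443607, plus strand) and *Id3* (chr4:136143572-136143871, plus strand) are printed as above, for comparison with those of the falling genes. They belong to the rising Treg genes with the largest log2 fold changes.
Ms4a4b: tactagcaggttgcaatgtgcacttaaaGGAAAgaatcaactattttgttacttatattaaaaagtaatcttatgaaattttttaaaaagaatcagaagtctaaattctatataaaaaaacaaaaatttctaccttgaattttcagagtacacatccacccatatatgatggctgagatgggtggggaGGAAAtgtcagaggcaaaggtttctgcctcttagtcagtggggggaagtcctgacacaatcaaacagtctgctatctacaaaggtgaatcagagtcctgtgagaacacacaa
Id3: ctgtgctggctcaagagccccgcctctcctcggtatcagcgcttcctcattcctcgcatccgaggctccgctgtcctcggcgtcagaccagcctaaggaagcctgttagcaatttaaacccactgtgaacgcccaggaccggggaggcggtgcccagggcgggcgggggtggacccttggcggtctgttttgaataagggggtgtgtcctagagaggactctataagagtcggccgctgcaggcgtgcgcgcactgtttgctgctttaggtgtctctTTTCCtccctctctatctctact
The *Ms4a4b* window holds 2 GGAAA matches and 1 match to the AP-1 motif TGANTCA, a motif found in 4.86% of windows, and the *Id3* window holds 1 GGAAA match. The *Gzma*, *Fasl* and *Ms4a4b* windows thus hold the same number of GGAAA matches.

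Genes of naive and quiescent T cells rose in 4 of 25 cases and fell in none, with a median of 0.19. *Klf2*, a factor that keeps T cells quiescent and directs their homing, was at 20.1, 30.3 and 15.4 normalized counts in restimulated and 58.1, 37.8 and 31.6 in treated libraries (log2 fold change 0.93 ± 0.24, adjusted p = 0.0161). Its relative *Klf3* was at 47.3, 38.1 and 31.8 without and 64.3, 87.1 and 61.4 with the drug (log2 fold change 0.84 ± 0.18, adjusted p = 0.00585), and both stayed below their resting means of 90.7 ± 21.4 and 132 ± 13.8 (SD, n = 3). *Txnip*, an inhibitor of glucose uptake, rose from 726, 670.1 and 706 to 989, 1095 and 1006 (log2 fold change 0.55 ± 0.08, adjusted p = 0.000281), and *Pik3ip1*, an inhibitor of PI3 kinase, from 257, 264 and 269 to 342, 414 and 389 (log2 fold change 0.53 ± 0.10, adjusted p = 0.00143). The treated libraries were above the restimulated ones for all 4. *Igfbp4* (log2 fold change 0.47 ± 0.06, adjusted p = 5.14e-05) and *Il7r* (log2 fold change 0.31 ± 0.09, adjusted p = 0.0297) were higher by adjusted p alone and *Bach2* lower (log2 fold change -0.32 ± 0.07, adjusted p = 0.00417), while *Tcf7*, encoding TCF-1, did not pass (log2 fold change 0.17 ± 0.07, adjusted p = 0.125). Calls were lost for *Klf2* without restimulated replicate 1 or 3 or CM-4620 replicate 1 (adjusted p up to 0.119), *Pik3ip1* without CM-4620 replicate 2 (log2 fold change 0.43) and *Txnip* without CM-4620 replicate 2 (log2 fold change 0.49), and without replicate 2 the calls of *Klf3*, *Pik3ip1* and *Txnip* were lost.

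Outside the lists, the largest rises were in genes of low level. *Muc13*, a membrane mucin, was at 4.03, 5.60 and 3.63 normalized counts in restimulated and 30.6, 18.5 and 29.8 in treated libraries (log2 fold change 2.32 ± 0.29, adjusted p = 4.07e-05), below the resting 103, 118 and 155. *Anxa1*, encoding annexin A1, was at 7.05, 6.72 and 9.99 without and 28.6, 29.9 and 35.1 with the drug (log2 fold change 1.86 ± 0.22, adjusted p = 2.42e-05). No restimulated library held more than 9.99 normalized counts of either. *Cstdc4* and *Csta2*, genes of the stefin A cysteine protease inhibitors, rose above rest as well. *Cstdc4* was at 7.05, 11.2 and 10.9 without and 38.8, 66.0 and 49.1 with the drug (log2 fold change 2.28 ± 0.27, adjusted p = 2.4e-05), against 5.27, 6.05 and 6.83 at rest, and *Csta2* at 23.2, 24.7 and 25.4 without and 73.5, 106 and 79.0 with the drug (log2 fold change 1.76 ± 0.21, adjusted p = 2.44e-05), against 10.5, 17.2 and 10.6. These paralogs share sequence, so reads may be split between them. *Fgl2*, a secreted effector of Tregs, was at 38.3, 45.9 and 16.3 without and 95.9, 88.0 and 53.5 with the drug (log2 fold change 1.29 ± 0.19, adjusted p = 0.00017). *Drc1* (log2 fold change 1.66 ± 0.19, adjusted p = 1.83e-05), *Eya2* (log2 fold change 1.90 ± 0.38, adjusted p = 0.00321) and *Atp8a2* (log2 fold change 1.66 ± 0.36, adjusted p = 0.00562) also rose. *Rnase4*, a secreted ribonuclease, rose from 19.1, 15.7 and 24.5 to 54.1, 56.3 and 60.5 and *Evi2a* from 29.2, 20.2 and 22.7 to 56.1, 63.4 and 55.3, without overlap. The remaining members of the 15, *Slc1a1* and *Ell3*, each lost the call without any 1 of 3 libraries (adjusted p up to 0.0881), and 31.9% and 65.6% of their exon bases are shared.

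The rises with the smallest p were in genes of middle and high level. *Ctss*, the lysosomal protease cathepsin S, was at 549.9, 532 and 499.5 normalized counts in restimulated and 1098, 1142 and 1051 in treated libraries (log2 fold change 1.06 ± 0.07, adjusted p = 2.86e-08). All 3 treated values were above those at rest, 724, 753 and 792. *Glrx*, glutaredoxin, which reduces glutathionylated proteins, was at 3269, 3117 and 3246 without and 4856, 4839 and 5022 with the drug (log2 fold change 0.61 ± 0.05, adjusted p = 3.43e-07), also above the resting 3007, 2908 and 3034. *Ccs*, the copper chaperone of superoxide dismutase, was at 1396, 1236 and 1285 without and 2071, 2183 and 2132 with the drug (log2 fold change 0.71 ± 0.06, adjusted p = 7.58e-07), with 1639, 1623 and 1746 at rest. The copper transporter *Atp7b* and this copper chaperone thus moved in opposite directions. *Mpp1*, a membrane scaffold protein, was at 675, 725 and 760.2 without and 1111, 1172 and 1216 with the drug (log2 fold change 0.70 ± 0.06, adjusted p = 7.44e-07), and *Car5b*, a mitochondrial carbonic anhydrase, at 292, 272 and 258 without and 494, 546 and 528 with the drug (log2 fold change 0.93 ± 0.08, adjusted p = 1.21e-06). No treated library overlapped a restimulated one in these 5 genes.

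Interferon-inducible genes changed in both directions. Of 24 interferon-stimulated genes tested 4 rose and 3 fell, with a median of -0.01. *Isg20*, an exonuclease, was at 144, 84.0 and 91.7 normalized counts in restimulated and 201, 229.7 and 192 in treated libraries (log2 fold change 0.99 ± 0.14, adjusted p = 0.000165), far below the resting 652, 692 and 745. *Phf11b* (log2 fold change 0.55 ± 0.09, adjusted p = 0.000424) and *Ifit1* (log2 fold change 1.11 ± 0.31, adjusted p = 0.0274) rose as well, and *Ifit1bl1* was at 0, 3.36 and 0 without and 13.3, 11.4 and 14.0 with the drug. *Stat2*, which carries the type I interferon signal, fell from 1006, 1006 and 1029 to 697, 606 and 684 (log2 fold change -0.62 ± 0.07, adjusted p = 1.56e-05), together with *Usp18* (log2 fold change -0.53 ± 0.13, adjusted p = 0.0111) and *Dhx58* (log2 fold change -0.58 ± 0.14, adjusted p = 0.00954). *Ifitm3*, an antiviral membrane protein that was not in the list, rose from 141, 139 and 141 to 242, 267 and 259 (log2 fold change 0.86 ± 0.08, adjusted p = 2.81e-06), with 739, 746 and 731 at rest. The threshold was missed by *Ifit1* without restimulated replicate 2 or 3 or CM-4620 replicate 2 or 3 (adjusted p up to 0.196), *Phf11b* without restimulated replicate 2 or CM-4620 replicate 2 (log2 fold change 0.47), *Usp18* without restimulated replicate 1 or 2 or CM-4620 replicate 1 (adjusted p up to 0.0819) and *Dhx58* without restimulated replicate 1 (adjusted p = 0.0771). The number that rose was 2 without restimulated replicate 2 and without CM-4620 replicate 2, and the number that fell was 1 without restimulated replicate 1.

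The p200 genes *Ifi203*, *Ifi209* and *Mndal*, which encode DNA-binding proteins of 1 gene cluster, rose. *Mndal* was at 25.2, 22.4 and 29.1 normalized counts in restimulated and 64.3, 49.3 and 65.8 in treated libraries (log2 fold change 1.19 ± 0.19, adjusted p = 0.000431), *Ifi203* at 5.04, 17.9 and 11.8 without and 30.6, 38.7 and 43.0 with the drug (log2 fold change 1.75 ± 0.28, adjusted p = 0.000537), and *Ifi209* at 5.04, 11.2 and 18.2 without and 20.4, 35.2 and 25.4 with the drug (log2 fold change 1.29 ± 0.30, adjusted p = 0.00900). All were higher at rest, with means of 123 ± 11.3 for *Mndal*, 157 ± 22.8 for *Ifi203* and 47.8 ± 20.5 for *Ifi209* (SD, n = 3), and their similar sequences make the split of reads between them uncertain. Guanylate-binding proteins differed from each other. *Gbp10* fell from 409.9, 357 and 394 to 183, 216 and 219 (log2 fold change -0.91 ± 0.16, adjusted p = 0.00124), *Gbp5* was lower (log2 fold change -0.42 ± 0.06, adjusted p = 0.000314) and *Gbp4* higher (log2 fold change 0.42 ± 0.08, adjusted p = 0.0025) by adjusted p alone, and *Gbp2* did not pass (log2 fold change -0.07 ± 0.05, adjusted p = 0.369). Of 19 tested genes of these families 3 rose and 1 fell. Of the *Gbp10* exon bases 46.3% are shared with another gene's exons, and the call was lost for *Ifi209* without restimulated replicate 1 or CM-4620 replicate 2 (adjusted p up to 0.0657).

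Genes of the glycolysis and glucose uptake list were lower nearly throughout, each by a small amount. The list also holds *Bnip3*, *Egln3* and *Pdk1*, which encode no glycolytic enzyme or glucose transporter and count among the lower genes. Of 26 tested on this list, 22 were lower by adjusted p alone and none higher, against 5.58% of all genes tested. The median log2 fold change was -0.35. The list was chosen with earlier results of these data known, so its count is no independent evidence of direction. Only 4 also passed the fold threshold. The glucose transporter *Slc2a3* was at 2689, 2530.4 and 2524 normalized counts in restimulated and 1583, 1788 and 1643 in treated libraries (log2 fold change -0.63 ± 0.08, adjusted p = 7.54e-05), and *Pfkp*, phosphofructokinase, at 8091, 7661 and 7859 without and 5224, 5750.1 and 5654 with the drug (log2 fold change -0.51 ± 0.06, adjusted p = 2.44e-05). *Bnip3*, a mitophagy receptor induced by hypoxia, was at 5060.1, 5672 and 6066 without and 3341, 2976 and 3666 with the drug (log2 fold change -0.75 ± 0.07, adjusted p = 1.28e-06), below its resting 5058, 4733 and 4798. The muscle-type enolase *Eno3* was the fourth gene (log2 fold change -0.58 ± 0.10, adjusted p = 0.00115). The enzymes with high counts were lower by adjusted p alone. *Aldoa* was at 38893, 38509 and 39774 without and 29989, 30306 and 31726 with the drug (log2 fold change -0.35 ± 0.05, adjusted p = 0.000122), *Pkm* at 71590.2, 71401 and 72773 without and 61134, 60650.3 and 61851 with the drug (log2 fold change -0.23 ± 0.05, adjusted p = 0.00678), and *Ldha* at 57168, 58667 and 63869 without and 47601, 47969 and 51067 with the drug (log2 fold change -0.29 ± 0.05, adjusted p = 0.00105). None of these enzymes' groups overlapped. *Gapdh* (log2 fold change -0.27 ± 0.07, adjusted p = 0.0139), *Pgk1* (log2 fold change -0.26 ± 0.05, adjusted p = 0.00146), *Eno1* (log2 fold change -0.31 ± 0.06, adjusted p = 0.00163) and *Hk2* (log2 fold change -0.46 ± 0.08, adjusted p = 0.000991) were lower too. *Slc2a1*, the other main glucose transporter, was at 2430.3, 2065 and 2029 without and 1862, 2076 and 1931 with the drug, with overlap (log2 fold change -0.15 ± 0.10, adjusted p = 0.422), and *Eno2* did not pass (log2 fold change 0.22 ± 0.18, adjusted p = 0.509). *Hif1a*, whose protein drives glycolysis genes, was lower by adjusted p alone (log2 fold change -0.43 ± 0.08, adjusted p = 0.0017). The count of 22 was 18 under quantile normalization, 16 to 21 without single libraries and 11 without replicate 2. The calls did not hold for *Pfkp* without restimulated replicate 1 or CM-4620 replicate 1 or 3 (log2 fold change -0.46) and *Eno3* without CM-4620 replicate 1 (log2 fold change -0.47).

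Cholesterol synthesis genes were also lower. Of 23 tested, 14 were lower by adjusted p alone, against 5.58% of all genes tested, and none was higher. This list too was chosen with earlier results of these data known. The fold threshold was passed by 2, beside 2.09% of all genes tested that fell, and the median was -0.31. *Hmgcs1*, an early enzyme of the pathway, was at 1171, 1311 and 1332 normalized counts in restimulated and 887, 816 and 876 in treated libraries (log2 fold change -0.56 ± 0.06, adjusted p = 8.75e-06). Restimulation itself had lowered it from 1823, 1804 and 1942, so treated cells lay further from rest. *Fdft1*, squalene synthase, was at 1171, 1339 and 1432 without and 851, 836 and 935 with the drug (log2 fold change -0.59 ± 0.07, adjusted p = 1.91e-05), *Cyp51* at 1592, 1536 and 1714 without and 1155, 1043 and 1264 with the drug (log2 fold change -0.49 ± 0.06, adjusted p = 2.67e-05) and *Sqle* at 1047, 1155 and 1176 without and 904, 825 and 921 with the drug (log2 fold change -0.35 ± 0.06, adjusted p = 0.00161). Treated libraries were below restimulated ones in each. *Insig1* was lower by adjusted p alone (log2 fold change -0.44 ± 0.10, adjusted p = 0.00567), and *Ebp* was the 1 gene above 0 (log2 fold change 0.11 ± 0.06, adjusted p = 0.26). The count of 14 fell to 6 without replicate 2, and 4 genes passed the fold threshold without CM-4620 replicate 3.

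**Figure D3:**
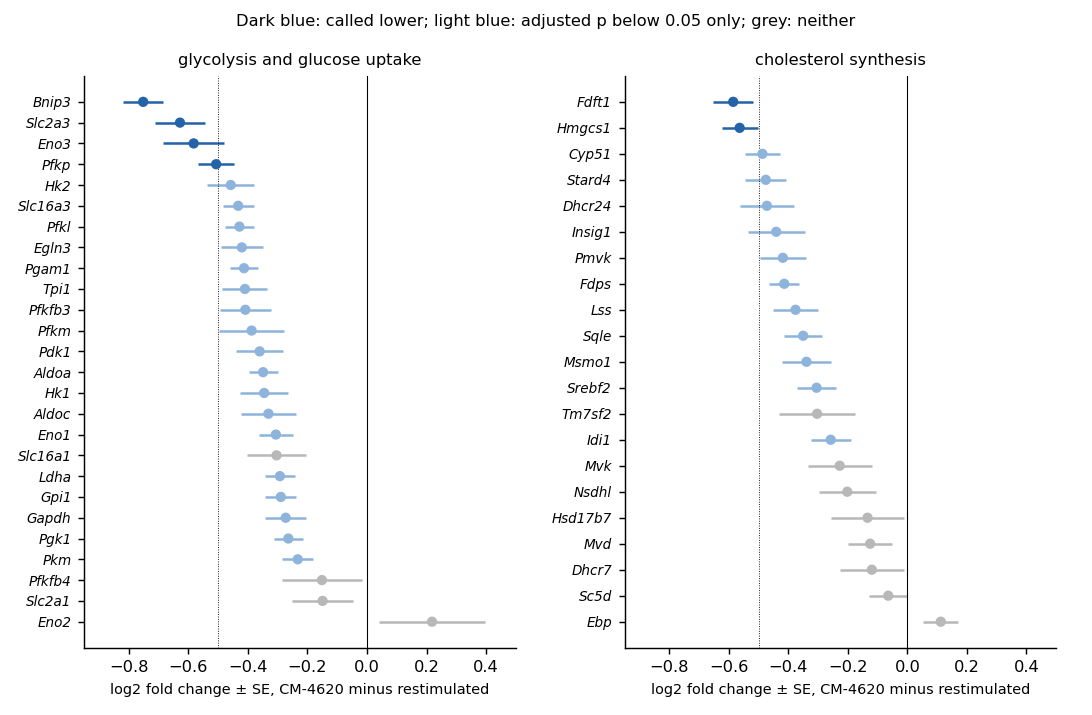
Log2 fold change (CM-4620 minus restimulated, ± SE) of tested glycolysis and cholesterol synthesis genes, without 2 of the latter that are not reported here. Nearly all points lie left of 0. Past the fold threshold are 4 genes of the glycolysis list, among them the mitophagy receptor *Bnip3*, and 2 cholesterol genes.

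Cell cycle genes stayed close to the restimulated level. None of 30 DNA replication and 30 mitosis genes was called by limma, edgeR or DESeq2, beside 3.78% of all genes tested in limma. The medians were 0.04 and 0.09. An unadjusted p below 0.05 in limma was reached by 7 and 10 genes, beside 2650 of all 11105 genes tested. *Mcm6*, a helicase subunit, was at 10085, 10669 and 11373 normalized counts in restimulated and 9514, 9492 and 10843 in treated libraries (log2 fold change -0.11 ± 0.05, adjusted p = 0.244), with overlap. By adjusted p alone *Pcna* (log2 fold change 0.18 ± 0.06, adjusted p = 0.0487), *Tyms* (log2 fold change 0.24 ± 0.05, adjusted p = 0.00751) and *Cdc20* (log2 fold change 0.34 ± 0.06, adjusted p = 0.00115) were higher and the spindle kinase *Ttk* lower (log2 fold change -0.34 ± 0.09, adjusted p = 0.0164). Of 14 BCL2 family genes none was called by any of these tools, and 4 had an unadjusted p below 0.05. *Bcl2*, the survival gene, was at 5129.6, 4931 and 5034 without and 5694, 5704 and 5798 with the drug (log2 fold change 0.19 ± 0.05, adjusted p = 0.022), and *Bad* was also higher by adjusted p alone (log2 fold change 0.30 ± 0.08, adjusted p = 0.0154).

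The amino acid and unfolded protein responses showed 2 falls among 28 genes, with a median of -0.02. *Chac1*, a glutathione-degrading enzyme induced by ATF4, was at 53.4, 42.6 and 57.2 normalized counts in restimulated and 28.6, 29.0 and 20.2 in treated libraries (log2 fold change -0.96 ± 0.20, adjusted p = 0.00392), and *Vldlr* at 367, 378 and 459 without and 189.8, 231 and 229 with the drug (log2 fold change -0.88 ± 0.09, adjusted p = 6.77e-06). Both sets of treated libraries were the lowest of the 4 groups. *Atf4* (log2 fold change -0.25 ± 0.06, adjusted p = 0.00854) and *Psat1* (log2 fold change -0.26 ± 0.05, adjusted p = 0.00191) were lower and the chaperone *Hspa5* higher (log2 fold change 0.20 ± 0.05, adjusted p = 0.00872) by adjusted p alone, and *Ddit3* missed the threshold (log2 fold change 0.35 ± 0.11, adjusted p = 0.0503). Among 23 adhesion and migration genes 2 rose and 2 fell, with a median of 0.06. *Cd226*, an activating receptor, rose from 186, 168 and 213 to 288, 350.3 and 288 (log2 fold change 0.70 ± 0.11, adjusted p = 0.000488), above the resting 189.7, 188 and 232, and the integrin *Itga6* rose too (log2 fold change 0.52 ± 0.11, adjusted p = 0.00523). *Itga3* (log2 fold change -0.66 ± 0.17, adjusted p = 0.0164) and the chemokine receptor *Cxcr4* (log2 fold change -0.68 ± 0.16, adjusted p = 0.00986) fell. *Itgb7* (log2 fold change 0.45 ± 0.06, adjusted p = 4.17e-05) and *Selplg* (log2 fold change 0.29 ± 0.05, adjusted p = 0.000708) were higher by adjusted p alone. The threshold was missed by *Itga3* without restimulated replicate 1 or 2 or CM-4620 replicate 1 or 3 (adjusted p up to 0.106), *Itga6* without restimulated replicate 2 or CM-4620 replicate 1 or 2 (adjusted p up to 0.0616) and *Cxcr4* without restimulated replicate 1 or CM-4620 replicate 3 (adjusted p up to 0.0598).

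**Figure D4:**
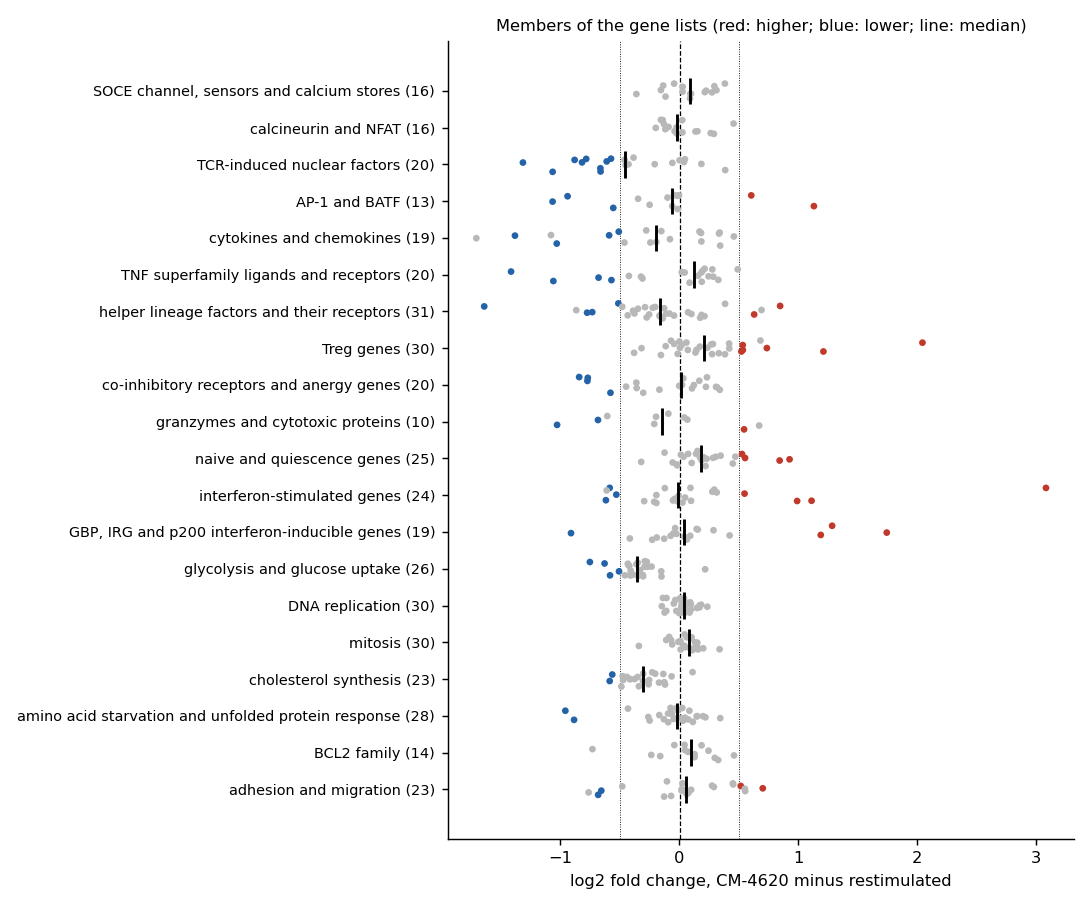
Log2 fold change (CM-4620 minus restimulated) of every tested member of the 20 gene lists, 1 row per list, with the median as a line and called genes in red (higher) or blue (lower). The point at 3.09 is *Ifit1bl1*, a value that depends on the 1 added to each count, since 2 of its restimulated libraries were at 0. Medians run from -0.46 for nuclear factors induced by the T cell receptor to 0.20 for Treg genes.

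The block of the channel was also set directly against the block of calcineurin. CM-4620-treated and CsA-treated iTregs differed in 51 of 11105 genes (0.459%), 12 higher (0.108%) and 39 lower (0.351%) with CM-4620. Both groups stand against the same 3 restimulated libraries, and neither drug's dose is known here, so a lack of difference does not show that the drugs acted alike. *Cd24a* differed most by p among the genes named: CsA left it at 972, 977 and 1010.0 normalized counts, near the restimulated level, and CM-4620 minus CsA was -1.14 ± 0.07 (SE, adjusted p = 6.49e-08). *Gzma* was at 1459, 1438 and 1401 with CsA, between the restimulated and CM-4620 levels (CM-4620 minus CsA -0.53 ± 0.05, adjusted p = 2.31e-05). *Bhlhe40* (CM-4620 minus CsA -0.54 ± 0.06, adjusted p = 0.000102), *Penk* (CM-4620 minus CsA -0.64 ± 0.08, adjusted p = 0.000232), *Hmgcs1* (CM-4620 minus CsA -0.62 ± 0.06, adjusted p = 1.59e-05) and *Insig1* (CM-4620 minus CsA -0.76 ± 0.10, adjusted p = 0.000258) were also lower with CM-4620, as was *Il10*, at 113, 138 and 103 with CsA (CM-4620 minus CsA -0.97 ± 0.16, adjusted p = 0.00323).

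The next 4 genes were named after their values were seen. *Acadm*, medium-chain acyl-CoA dehydrogenase, was at 514, 568 and 622 normalized counts in restimulated, 570.3, 543 and 517 in CM-4620-treated and 1174, 1143 and 1241 in CsA-treated libraries, with CM-4620 minus CsA at -1.13 ± 0.08 (SE, adjusted p = 2.79e-07). *Lmna*, encoding lamin A/C, was at 196, 194 and 177, 126, 104 and 125 and 309, 299.7 and 329, so CM-4620 lay below and CsA above restimulated cells (CM-4620 minus CsA -1.39 ± 0.12, adjusted p = 3.7e-06). *Tubb6* was at 539, 557 and 551, 306, 283 and 355 and 538, 518 and 642 (CM-4620 minus CsA -0.85 ± 0.08, adjusted p = 1.59e-05). *Cd74*, the MHC class II invariant chain, was higher with CM-4620, at 478, 505 and 474, 814, 717 and 709 and 425, 394 and 374 (CM-4620 minus CsA 0.91 ± 0.12, adjusted p = 0.000364). For *Tgm2*, *Ms4a4b*, *Fasl* and *Tnfrsf9*, CM-4620 minus CsA was -0.39 ± 0.06 (SE, adjusted p = 0.00305), 0.08 ± 0.11 (SE, adjusted p = 0.775), -0.22 ± 0.20 (SE, adjusted p = 0.651) and -0.18 ± 0.07 (SE, adjusted p = 0.221). The number of differing genes was 36 to 50 without any single CM-4620 library and 23 without replicate 2, where *Il10* lost its call (adjusted p = 0.0676).

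**Figure D5:**
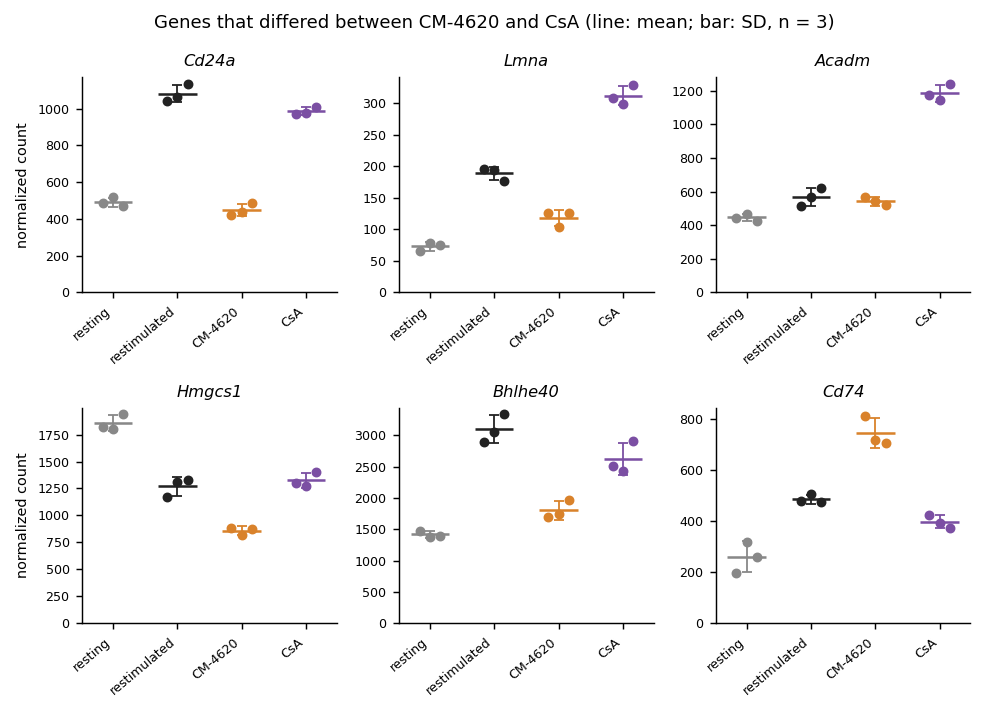
Normalized counts (linear axis from 0, 1 panel per gene) of 6 genes that differed between the drugs, in each library of the 4 groups. Points are libraries, lines are means and bars are the SD of 3 libraries. *Cd24a*, *Lmna*, *Acadm*, *Hmgcs1* and *Bhlhe40* sit lower and *Cd74* higher in CM-4620-treated than in CsA-treated cells.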

How the data were processed

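Poly(A) RNA of sorted live cells had been made into libraries with a SMART-seq2 protocol, which does not mark strand. Per the study's methods, the authors trimmed reads (Cutadapt 1.18), aligned them to mm10 (STAR 2.5.3) and counted them per gene (RSEM 1.3.0, GENCODE). The deposited signal values are gene counts divided by 1 size factor per library; no column was left out. Whole reads were recovered from the step size of each column, except that the step of 2 columns was near 1 and could not be checked in the same way. limma 3.58.1 (R 4.3.3) with trend was fitted to log2(normalized count + 1) over 12 iTreg libraries with the replicate number as block, after a filter of at least 10 normalized counts in 3 libraries. Genes with adjusted p below 0.05 and absolute log2 fold change above 0.5, the thresholds of the study, were called. Fold changes are on the log2(value + 1) scale, which understates changes of low genes. The recovered reads were tested with edgeR 4.0.16 and DESeq2 1.42.0 as alternatives. The fit was tested on simulated data. The 20 gene lists hold 507 genes, of which 436 passed the filter, as did 11105 of the 21950 in the table. The members and the lists were chosen with earlier results of these data known. Named genes are the 15 largest rises and falls without overlap and with a mean of at least 20, the 10 smallest p in each direction, called list members, the channel and NFAT genes, genes the study names, and further list members. A few genes that this rule names are not reported here but count in the totals. Symbols of 99.4% of tested genes were found in GENCODE M21, from which positions and exon overlaps come. RefSeq promoters matched 81.0% of tested but 76.7% of called genes, under the 80% needed, so no motif share of called genes is given.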

Additional observations from a re-analysis of the deposited data

How the results depend on the processing

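The 420 genes changed by CM-4620 (188 higher, 232 lower) numbered 1169 by adjusted p alone (549 higher, 620 lower) and 105 above a log2 fold change of 1 (53 higher, 52 lower). With at least 100 normalized counts in 3 libraries, a filter that tests 8382 genes, 277 were called, 122 of them higher. Other scalings, pseudocounts, filters and sets of libraries gave 350 to 443, edgeR 427 and DESeq2 365. Leaving out single libraries or replicate numbers gave 259 to 383 in all, 112 to 183 higher and 147 to 210 lower, with the lowest counts without replicate 2. For CM-4620 against CsA the 51 genes became 150 by adjusted p alone, 7 above a log2 fold change of 1, and 23 to 50 under the leave-outs. Without the replicate block 366 genes were called (167 higher, 199 lower), 363 of them shared with the 420, and *Nr4a2*, *Junb*, *Rora*, *Klf2* and *Itga3* and, against CsA, *Insig1* (adjusted p = 0.276) were the named genes that missed the threshold. Deviations of same-numbered CM-4620 and restimulated libraries correlated at 0.07, 0.06 and 0.29, so the replicate numbers are not shown to pair the libraries; over all 4 groups the mean was 0.15 for 18 pairs of the same number and -0.08 for 36 of different numbers, and not every library correlated best with its own number. Of 194 named genes, 189 entered a tally over these alternatives. Named genes kept for their levels only were left out, so a change of direction among them is not counted. Of 4119 values in the tally, 0 changed direction and 3809 stayed on their side of the threshold. Alternatives that changed only the threshold, the filter or the block, or kept only the 6 libraries compared, gave each gene the same log2 fold change. Those alternatives could not change a direction, so the 0 is partly built in. Another 238 fell short of it and 72 passed it newly. The causes were not tested. At these depths genes under the floor of 3 reads were not measurable.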

Other observations

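Of 13 protein-coding genes of the mitochondrial genome, 12 had a log2 fold change above 0 with CM-4620 and 2 were called higher, *mt-Co3* and *mt-Nd3*, which were picked out after their values were seen. *mt-Co3*, a subunit of cytochrome c oxidase, was at 5959, 5434 and 7327 normalized counts in restimulated, 12001, 11713 and 16204 in CM-4620-treated, 14167, 9575 and 8823 in resting and 7472, 8562 and 9582 in CsA-treated libraries, and CM-4620 minus restimulated was 1.09 ± 0.14 (SE, adjusted p = 5.72e-05). Every treated library was above every restimulated one. *mt-Nd3*, a subunit of complex I, was at 1871, 848 and 837 without and 1778, 1722 and 1498 with the drug, with overlap (log2 fold change 0.60, adjusted p = 0.0266, limma). *mt-Nd6*, another complex I subunit, was higher by adjusted p alone (log2 fold change 0.35, adjusted p = 0.00196, limma). The other 10 did not pass. Among them *mt-Co1* and *mt-Co2* had log2 fold changes of 0.14 and 0.17, and *mt-Nd4l*, at 42.3, 0 and 39.1 without and 40.8, 37.0 and 37.7 with the drug, had 1 restimulated library at 0.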
